A study of Mus musculus with 6 samples.

Results

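TRBV15, TRBV17 and TRBV26 are variable (V) genes of the mouse T cell receptor β chain (TCR-β), known in the older naming as V-beta-12, V-beta-9 and V-beta-3. They were taken as all sequences assigned to one of these 3 genes whose complementarity-determining region 3 (CDR3) carries no stop (*) or frame (.) mark, called productive here. The 3 genes were among 23 TRBV genes in the data. They held 20771 of 187625 clonotypes, a clonotype being a TRBV gene, a TRBJ gene and a CDR3 amino acid sequence. TRBV15 had 9007 of them, TRBV17 had 5089 and TRBV26 had 6675.

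The T cell receptor β chain is made in the thymus by joining a V, a D and a J gene segment, and the CDR3, which spans the junctions, contacts the peptide held by a major histocompatibility complex (MHC) molecule. Superantigens bind the side of the β chain that the V gene encodes, and so engage most T cells that use that V gene whatever their CDR3. Proteins of endogenous mouse mammary tumor viruses act in this way and, in strains that make the MHC class II molecule I-E, delete thymocytes bearing particular V genes. V-beta-12 is a V gene deleted in I-E-positive strains with certain proviruses, V-beta-9 is one that responds to the Mls-1 superantigen and V-beta-3 to the Mls-2 superantigen and to staphylococcal enterotoxins. C57BL/6 mice make no I-E on the cell surface and keep T cells with these V genes. Superantigen reactivity itself was not measured in these data.

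The repertoire was read in 6 libraries from C57BL/6 mice, 2 per tissue. All groups came from mice that received MO4 cells, a B16F10 melanoma line expressing ovalbumin, under the skin of both hindlimbs (100000 cells per side, day 0). IFN-α-iPSC-pMC (1000000 cells), which are myeloid cells grown from induced pluripotent stem cells to make interferon-α, were placed beside the right tumor in 5 injections between days 5 and 13, and tumor RNA was taken on day 14. The groups were the injected right tumor (treated tumor), the left tumor of the same mice, given no pMC (distant tumor), and the spleen of these treated animals. The design names 2 mice, so each group rests on 2 animals, and no untreated mouse is among the libraries. The labels give neither the ages of the mice nor the day on which spleen RNA was taken.

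The 3 genes lie in the TCR-β locus on chromosome 6, plus strand, in GRCm38 (GENCODE M21): Trbv15 at chr6:41141188-41141658, Trbv17 at chr6:41163062-41163556 and Trbv26 at chr6:41227505-41227993, each annotated as a T cell receptor V gene. The last 60 bases of each gene are shown because they hold the start of the CDR3. Capitals mark the last 17 bases, from the codon of the conserved cysteine to the end of the germline gene.
Trbv15, chr6:41141599-41141658: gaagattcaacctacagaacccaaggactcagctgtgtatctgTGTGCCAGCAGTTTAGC
Trbv17, chr6:41163497-41163556: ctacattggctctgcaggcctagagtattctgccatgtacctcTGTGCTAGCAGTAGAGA
Trbv26, chr6:41227934-41227993: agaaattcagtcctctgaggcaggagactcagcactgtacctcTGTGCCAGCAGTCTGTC
The 5 whole codons in capitals encode CASSL in TRBV15, CASSR in TRBV17 and CASSL in TRBV26. TRBV17 therefore brings an arginine as the fifth germline residue where the other two bring a leucine.

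Productive reads numbered 83171 and 56057 in treated tumors 1 and 2, 82142 and 42320 in distant tumors 1 and 2, and 96907 and 135599 in spleens 1 and 2. A clonotype with no read may still hold up to 3 reads, which is 0.00221% of spleen 2 and 0.00709% of distant tumor 2, the deepest and the shallowest library. Reads were amplified by PCR and the labels name no molecular identifiers, so reads are not independent molecules, and intervals and floors cover only counting error. In bulk RNA, fewer T cells with a V gene and less receptor RNA per cell cannot be told apart. Shares of V genes sum to 100% in a library, and one gene, TRBV12-1, took 24.4% of distant tumor 1.

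TRBV17 was lower in both treated tumors than in both distant tumors and both spleens, TRBV15 was lower in both distant tumors than in every other library, and TRBV26 showed no such order. The 3 genes together took 10.96% and 8.20% of productive reads in treated tumors 1 and 2, 8.95% and 8.48% in distant tumors 1 and 2, and 9.89% and 12.5% in spleens 1 and 2. The Wilson 95% intervals of the gene shares below were between 0.146 and 0.336 percentage points wide.

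TRBV15 took 5.64% and 3.30% of productive reads in treated tumors 1 and 2, 2.58% and 2.66% in distant tumors 1 and 2, and 4.71% and 5.89% in spleens 1 and 2. Both distant tumors lay below both treated tumors and both spleens, whereas the treated tumors lay far apart. TRBV15 averaged 4.47% ± 1.65 in treated tumors, 2.62% ± 0.0547 in distant tumors and 5.30% ± 0.830 in spleens (SD, n = 2 each). The treated tumors and the spleens differed by less than the spread between the treated tumors.

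TRBV17 took 1.17% and 1.41% of productive reads in treated tumors 1 and 2, 2.73% and 3.20% in distant tumors 1 and 2, and 2.64% and 2.76% in spleens 1 and 2. The treated tumors were the lowest of the 6 libraries, and the distant tumors and spleens overlapped. Within replicate number 1 the TRBV17 share was 2.34-fold lower in the treated than in the distant tumor, and within number 2 it was 2.28-fold lower. Against the spleen of the same number, the treated tumor share was 2.26-fold lower in number 1 and 1.96-fold lower in number 2.

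TRBV26 took 4.16% and 3.49% of productive reads in treated tumors 1 and 2, 3.63% and 2.62% in distant tumors 1 and 2, and 2.53% and 3.88% in spleens 1 and 2. All 3 tissues overlapped, and no neighbours in the order of tissue means (3.83% ± 0.470, 3.13% ± 0.718 and 3.20% ± 0.949 in treated tumors, distant tumors and spleens, SD, n = 2 each) differed beyond their spread. The treated tumor exceeded the distant tumor in both numbers, by 1.14-fold and 1.33-fold.

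**Figure D1:**
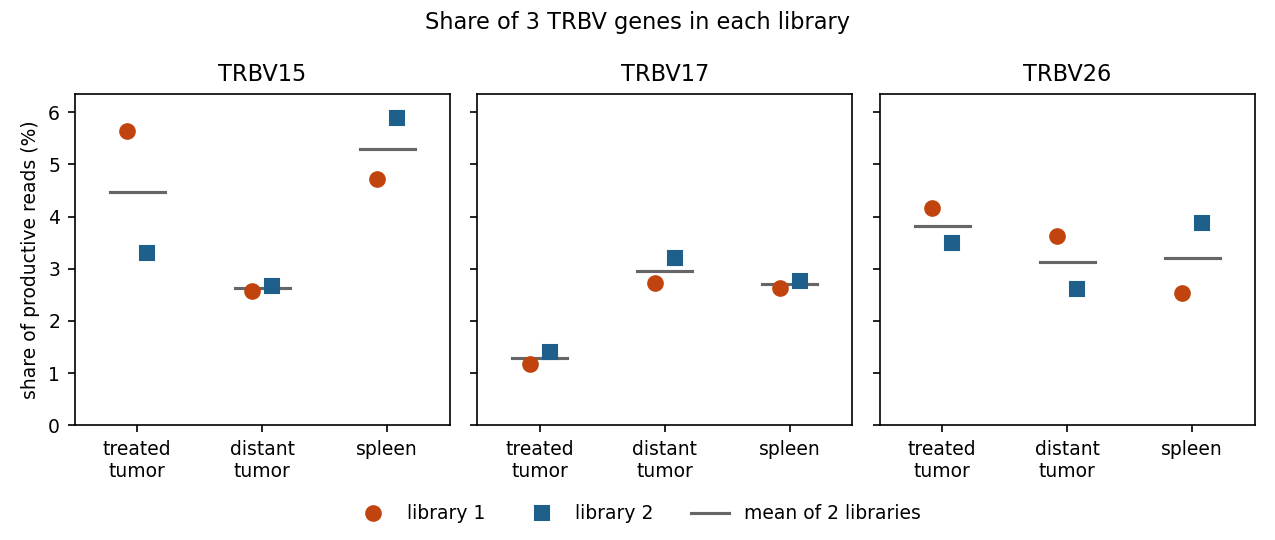
Share of productive reads (y axis, percent) assigned to TRBV15, TRBV17 and TRBV26 in each of the 6 libraries, grouped by tissue on the x axis; circles are libraries numbered 1, squares libraries numbered 2 and bars the mean of 2 libraries. TRBV17 sits at 1.17% and 1.41% in treated tumors and at 2.64% or more elsewhere, while TRBV15 sits at 2.58% and 2.66% in distant tumors and at 3.30% or more elsewhere.

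None of the 3 genes passed the test in any comparison of tissues. The quasi-likelihood test of edgeR, Benjamini-Hochberg adjusted over 23 TRBV genes, called 0 genes (0%) between treated and distant tumors, 0 (0%) between treated tumors and spleens and 0 (0%) between distant tumors and spleens, at an adjusted p under 0.05. At an unadjusted p under 0.05 there were 3, 3 and 4 genes, 1 of them a member each time (TRBV17, TRBV17 and TRBV15). DESeq2 called 2, 3 and 0 genes. The p-values measure the spread between these libraries, and tumors of the same mouse are not independent.

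For TRBV17, edgeR gave a log2 fold change of -1.21 (SE 0.283, adjusted p = 0.115) between treated and distant tumors and of -1.07 (SE 0.282, adjusted p = 0.166) between treated tumors and spleens. DESeq2 called TRBV17 in both comparisons, with -1.53 (adjusted p = 0.000204) and -1.01 (adjusted p = 0.0260). Over the alternatives tried, the log2 fold change of TRBV17 between treated and distant tumors ran between -1.53 and -0.79, with adjusted p between 0.000204 and 0.365. Between distant tumors and spleens TRBV17 had an edgeR log2 fold change of 0.14 (SE 0.279, adjusted p = 0.740).

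For TRBV15, edgeR gave a log2 fold change of 0.77 (SE 0.364, adjusted p = 0.313) between treated and distant tumors, -0.25 (SE 0.362, adjusted p = 0.750) between treated tumors and spleens and -1.02 (SE 0.366, adjusted p = 0.239) between distant tumors and spleens. Between treated and distant tumors it was 0.33 without treated tumor 1 and 1.10 without treated tumor 2. Leaving out the 10 most abundant clonotypes of each library, over all V genes, brought it to -0.053. The TRBV15 shares of the reads then left were 3.06% in treated tumor 1 and 4.23% in treated tumor 2, against 4.21% in distant tumor 1 and 3.35% in distant tumor 2. Because that step also removes reads of other V genes from the total, it does not show what part TRBV15's own clonotypes had. For TRBV26, the edgeR log2 fold changes were 0.29 (SE 0.354, adjusted p = 0.533), 0.26 (SE 0.354, adjusted p = 0.750) and -0.04 (SE 0.353, adjusted p = 0.923) in the same 3 comparisons. Between treated and distant tumors the sign for TRBV26 turned under TMM scaling (-0.015) and in DESeq2 (-0.060), and it turned between distant tumors and spleens as well.

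The whole set of V genes moved with the scaling, so the members were also set against its median. The median log2 fold change of all 23 TRBV genes between treated and distant tumors was 0.35 as fitted, 0.16 under TMM and 0.05 in DESeq2. Relative to that median, TRBV17 was at -1.56, -1.61 and -1.58 under the 3 scalings. TRBV15 was at 0.42, 0.32 and 0.37 relative to the median, and TRBV26 at -0.06, -0.17 and -0.11.

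Shares of treated and distant tumors did not overlap for 2 of the 3 genes, TRBV15 and TRBV17, against 34.8% of all 23 TRBV genes. Shares of treated tumors and spleens did not overlap for 1 of 3, TRBV17, against 52.2% of all genes. Distant tumors and spleens did not overlap for 1 of 3, TRBV15, against 60.9% of all genes. Separation of 2 libraries from 2 was thus common among V genes of this series. With all 4 tumors set against both spleens, an exact two-sided permutation test gave p = 0.267 for TRBV15, 0.467 for TRBV17 and 0.733 for TRBV26 (n = 4 and n = 2, smallest possible p 0.0667). The tumors and spleens come from 2 mice, so these libraries are not independent, which also limits the permutation tests below.

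Another 6 V genes known for superantigen responses, TRBV12-1, TRBV12-2, TRBV13-3, TRBV16, TRBV19 and TRBV29, were read beside the 3. None of the 6 passed edgeR's test in any comparison, while TRBV12-1 between treated and distant tumors was the single case with an unadjusted p under 0.05 and the single call in DESeq2. Their median log2 fold changes were -0.08 between treated and distant tumors, 0.07 between treated tumors and spleens and 0.03 between distant tumors and spleens. Those of TRBV15, TRBV17 and TRBV26 were 0.29, -0.25 and -0.04, and those of all 23 TRBV genes 0.35, 0.07 and -0.17. Between treated and distant tumors, 3 of the 6 had a positive and 3 a negative log2 fold change, from -2.54 to 1.10.

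Within each of the 3 genes, tumor reads sat on far fewer clonotypes than spleen reads. TRBV15 had 550 and 269 clonotypes in treated tumors 1 and 2, 380 and 348 in distant tumors and 3033 and 4971 in spleens. TRBV17 had 196 and 132 in treated tumors, 295 and 313 in distant tumors and 1769 and 2620 in spleens. TRBV26 had 571 and 270 in treated tumors, 464 and 358 in distant tumors and 1770 and 3635 in spleens. Because clonotypes accumulate with reads, the expected number was also computed at one depth per gene, the reads of that gene in its smallest library.

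At 1126 reads, TRBV15 had 193 and 176 clonotypes in treated tumors, 245 and 348 in distant tumors and 964 and 971 in spleens. At 788 reads, TRBV17 had 168 and 132 in treated tumors, 151 and 219 in distant tumors and 663 and 709 in spleens. At 1108 reads, TRBV26 had 264 and 174 in treated tumors, 244 and 358 in distant tumors and 924 and 991 in spleens. Every tumor lay below both spleens for each gene. The median of the other V genes with at least 788 reads in every library had the same order. At that depth it was 207 and 146 in treated tumors, 216 and 276 in distant tumors and 717 and 742 in spleens. The exact two-sided permutation test (4 tumors against 2 spleens) gave 0.0667 for each gene, the smallest p that it can give, and 0.2 after Benjamini-Hochberg adjustment over 9 tests. Libraries of the same mouse are not independent, which this test does not take into account. The T cells behind a library were not counted, and their part in these differences was not tested.

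The most abundant clonotype took 54.4% and 19.5% of TRBV15 reads in treated tumors 1 and 2, 24.6% and 9.33% in distant tumors, and 1.42% and 5.15% in spleens. It took 9.79% and 22.6% of TRBV17 reads in treated tumors, 49.4% and 11.3% in distant tumors, and 4.85% and 0.989% in spleens. It took 9.92% and 21.2% of TRBV26 reads in treated tumors, 16.4% and 6.77% in distant tumors, and 2.61% and 0.571% in spleens. All 4 tumors exceeded both spleens for each gene. The median of the other V genes with at least 788 reads in every library had the same order. It was 16.4% and 19.1% in treated tumors, 15.9% and 11.5% in distant tumors and 0.755% and 0.385% in spleens. The exact two-sided permutation test gave p = 0.2 for TRBV15, 0.2 for TRBV17 and 0.133 for TRBV26 (n = 4 and n = 2), each 0.3 after adjustment over the same 9 tests.

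**Figure D2:**
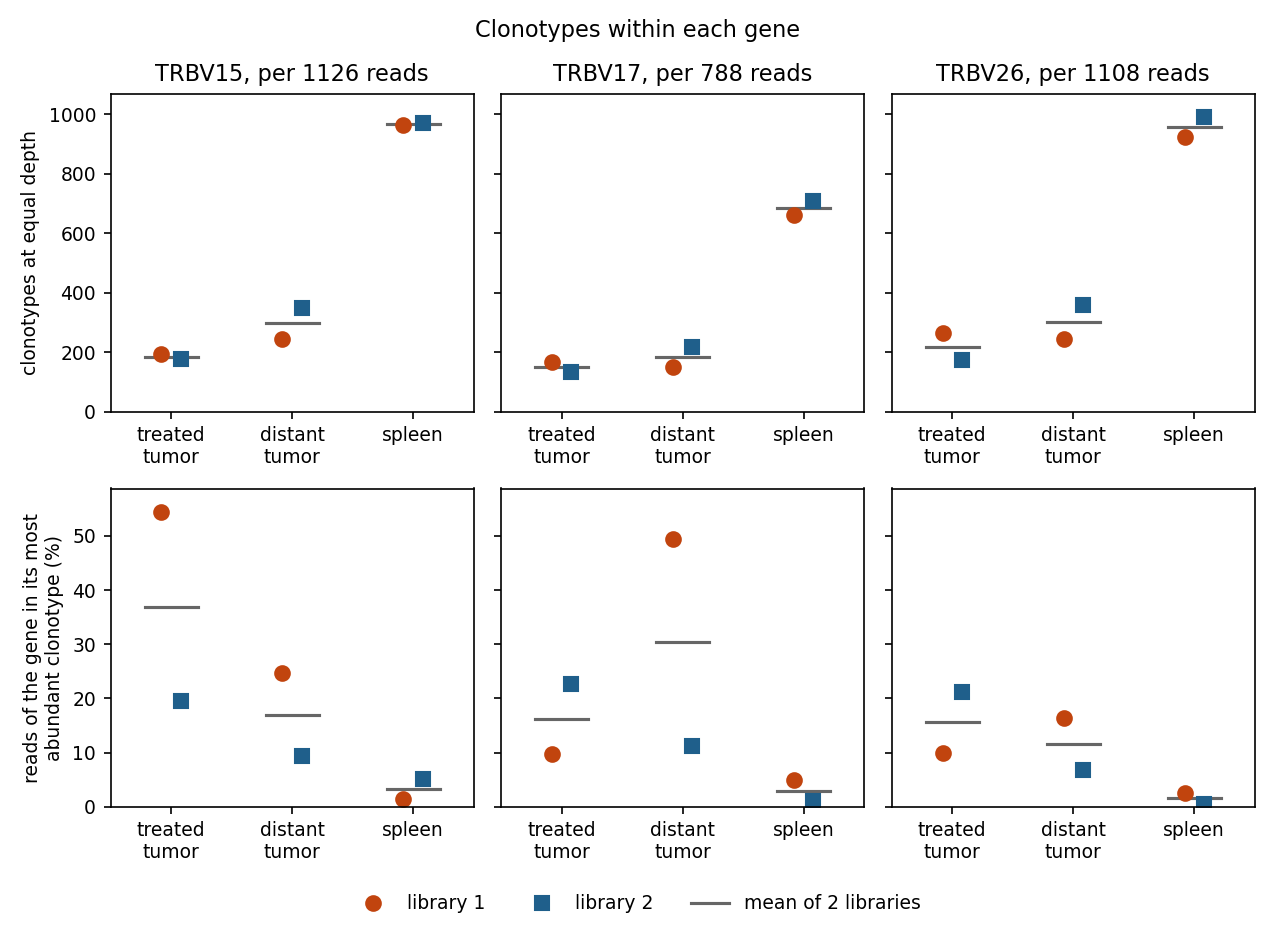
Upper row: expected number of clonotypes (y axis) of TRBV15, TRBV17 and TRBV26 at 1126, 788 and 1108 reads of the gene. Lower row: percent of the gene's reads in its most abundant clonotype. Tissues run along the x axis, circles and squares are libraries 1 and 2, and bars are means of 2 libraries. In the upper row the tumors lie between 132 and 358 clonotypes and the spleens between 663 and 991.

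Among 17 TRBV genes with at least 788 reads in every library, TRBV15 and TRBV17 mostly ranked low in diversity. Ranked from most to least diverse at 788 reads, TRBV17 was at rank 15 and 13 in treated tumors, 16 and 16 in distant tumors and 17 and 15 in spleens. TRBV15 was at rank 17 and 14 in treated tumors, 11 and 9 in distant tumors and 13 and 16 in spleens. TRBV26 was at rank 6 and 11 in treated tumors, 10 and 7 in distant tumors and 14 and 11 in spleens. The ranks describe these libraries and were not tested. In spleen 1 the most abundant clonotype of TRBV17 took a larger part of its gene than in any other of the 17 genes, and in spleen 2 this held for TRBV15, against medians of 0.755% and 0.385% over the other 14 genes.

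The clonotypes that led each gene are given by their CDR3 where it is up to 14 residues long, since they took the largest parts of the gene's reads. The first 3 led their gene in libraries of one replicate number, and the next 3 were the most widespread of each gene.
TRBV15 with TRBJ1-2: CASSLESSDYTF
TRBV17 with TRBJ2-3: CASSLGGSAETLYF
TRBV26 with TRBJ2-4: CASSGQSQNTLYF
TRBV26 with TRBJ2-5, in 6 libraries: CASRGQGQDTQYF
TRBV17 with TRBJ2-7, in 6 libraries: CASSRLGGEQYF
TRBV15 with TRBJ1-2, in 5 libraries: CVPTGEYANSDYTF

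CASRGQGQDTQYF, the TRBV26 clonotype in all 6 libraries, was high in both treated tumors. Its reads numbered 214 and 120 in the treated tumors (0.257% and 0.214% of productive reads), 16 and 10 in the distant tumors (0.0195% and 0.0236%) and 2 and 9 in the spleens (0.00206% and 0.00664%). The lowest treated tumor share, with a Wilson 95% interval of 0.179% to 0.256%, lay above the highest share elsewhere, with 0.0128% to 0.0435%. Its share was 13.2-fold higher in the treated than in the distant tumor of number 1 and 9.06-fold higher in number 2. It made up 6.19% and 6.13% of TRBV26 reads in treated tumors 1 and 2, against 0.536% and 0.903% in distant tumors. With 2 libraries against 2, an exact permutation test cannot go below 0.333, so no test of this difference was made.

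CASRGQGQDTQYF kept 3 germline residues of TRBV26 and 6 of TRBJ2-5, leaving 4 between them, and the same TRBJ and CDR3 also occurred with 1 other V gene. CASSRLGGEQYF, the TRBV17 clonotype in all 6 libraries, kept all 5 germline TRBV17 residues. Its reads numbered 27 and 46 in the treated tumors (0.0325% and 0.0821%), 23 and 13 in the distant tumors (0.0280% and 0.0307%) and 6 and 3 in the spleens (0.00619% and 0.00221%). All 4 tumors lay above both spleens, although the Wilson 95% intervals of distant tumor 2 (0.0180% to 0.0526%) and spleen 1 (0.00284% to 0.0135%) came close. A further TRBV17 clonotype with TRBJ2-1, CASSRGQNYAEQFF, was in 5 libraries with the reverse order among tumors. Its reads numbered 21 and 7 in the treated tumors (0.0252% and 0.0125%), 54 and 33 in the distant tumors (0.0657% and 0.0780%), and 0 and 3 in the spleens.

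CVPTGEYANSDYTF, the TRBV15 clonotype in 5 libraries, kept only the cysteine of the germline V end and has 7 residues between the V and J parts. It had 36 reads in treated tumor 1, 523 in distant tumor 1 (0.637% of productive reads, Wilson 95% interval 0.585% to 0.693%) and 5 in spleen 1. Among libraries numbered 2 it had 1 read in the tumor that was treated, 0 in the distant one and 1 in the spleen. Its share was 14.7-fold lower in treated tumor 1 than in distant tumor 1, and it made up 24.6% of TRBV15 reads in distant tumor 1. The single reads of number 2 are too few to place it in that animal.

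The remaining leaders had nearly all of their reads in libraries of one replicate number. The TRBV15 clonotype with the most reads in any library paired TRBJ1-1 with a CDR3 of 15 residues and was the most abundant clonotype of treated tumor 1, with 2550 reads (3.07%, Wilson 95% interval 2.95% to 3.19%). It had 92 reads in distant tumor 1 and 6 in spleen 1, a share 27.4-fold and 495-fold higher in the treated tumor, and 0, 1 and 0 reads in treated tumor 2, distant tumor 2 and spleen 2. Without its most abundant clonotype, TRBV15 would hold 2.65% and 2.67% of productive reads in treated tumors 1 and 2, 1.96% and 2.42% in distant tumors and 4.65% and 5.60% in spleens. On that measure all 4 tumors lay below both spleens, whereas with all reads treated tumor 1 (5.64%) lay above spleen 1 (4.71%). The step itself lowers tumors more than spleens. The most abundant clonotype took 9.33% to 54.4% of TRBV15 reads in tumors and 1.42% and 5.15% in spleens. The order after the step thus rests partly on the step, and other V genes were not compared in this way.

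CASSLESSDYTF, of TRBV15, had 361 reads in treated tumor 2 (0.644%), 105 in distant tumor 2 (0.248%) and 411 in spleen 2 (0.303%), and none in the libraries numbered 1. It was the most abundant clonotype of spleen 2 over all V genes. Its share was 2.60-fold higher in the treated than in the distant tumor and 2.12-fold higher than in the spleen. A second TRBV15 clonotype of number 2, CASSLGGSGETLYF with TRBJ2-3, had 67, 99 and 39 reads in treated tumor 2, distant tumor 2 and spleen 2.

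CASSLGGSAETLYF, of TRBV17, was the counterpart in number 1, with 95 reads in treated tumor 1 (0.114%), 1107 in distant tumor 1 (1.35%) and 124 in spleen 1 (0.128%), and none in number 2. Over all V genes it was the clonotype of rank 3 in spleen 1. Its share was 11.8-fold lower in the treated than in the distant tumor, and it made up 49.4% of TRBV17 reads in distant tumor 1. Without its own most abundant clonotype in each library, TRBV17 would hold 1.05% and 1.09% in treated tumors, 1.40% and 2.85% in distant tumors and 2.51% and 2.73% in spleens. The treated tumors stayed the lowest, but distant tumor 1 then lay nearer to them than to the spleens. Here too the step takes a larger part of the gene's reads from tumors than from spleens. The same TRBJ and CDR3 occurred with 11 other V genes.

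In number 2, TRBV17 was led by different clonotypes in its tumors. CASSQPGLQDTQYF with TRBJ2-5 had 178 reads in treated tumor 2, 5 in distant tumor 2 and 2 in spleen 2, a share 26.9-fold higher in the treated than in the distant tumor. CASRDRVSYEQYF with TRBJ2-7 had 26 reads in treated tumor 2, 153 in distant tumor 2 and 14 in spleen 2, a share 7.79-fold lower in the treated tumor. Neither had a read in the libraries numbered 1.

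TRBV26 was likewise led by a different clonotype in each tumor. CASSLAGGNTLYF with TRBJ1-3 had 343 reads in treated tumor 1 (0.412%) and none in distant tumor 1 or spleen 1, a share at least 113-fold and 133-fold higher when 3 reads are taken as the floor of each library. A clonotype with TRBJ2-1 and 16 residues had 416 reads in treated tumor 2 (0.742%), 16 in distant tumor 2 and none in spleen 2. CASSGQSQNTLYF had 12 reads in treated tumor 1, 491 in distant tumor 1 (0.598%) and 3 in spleen 1, a share 41.4-fold lower in the treated tumor.

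**Figure D3:**
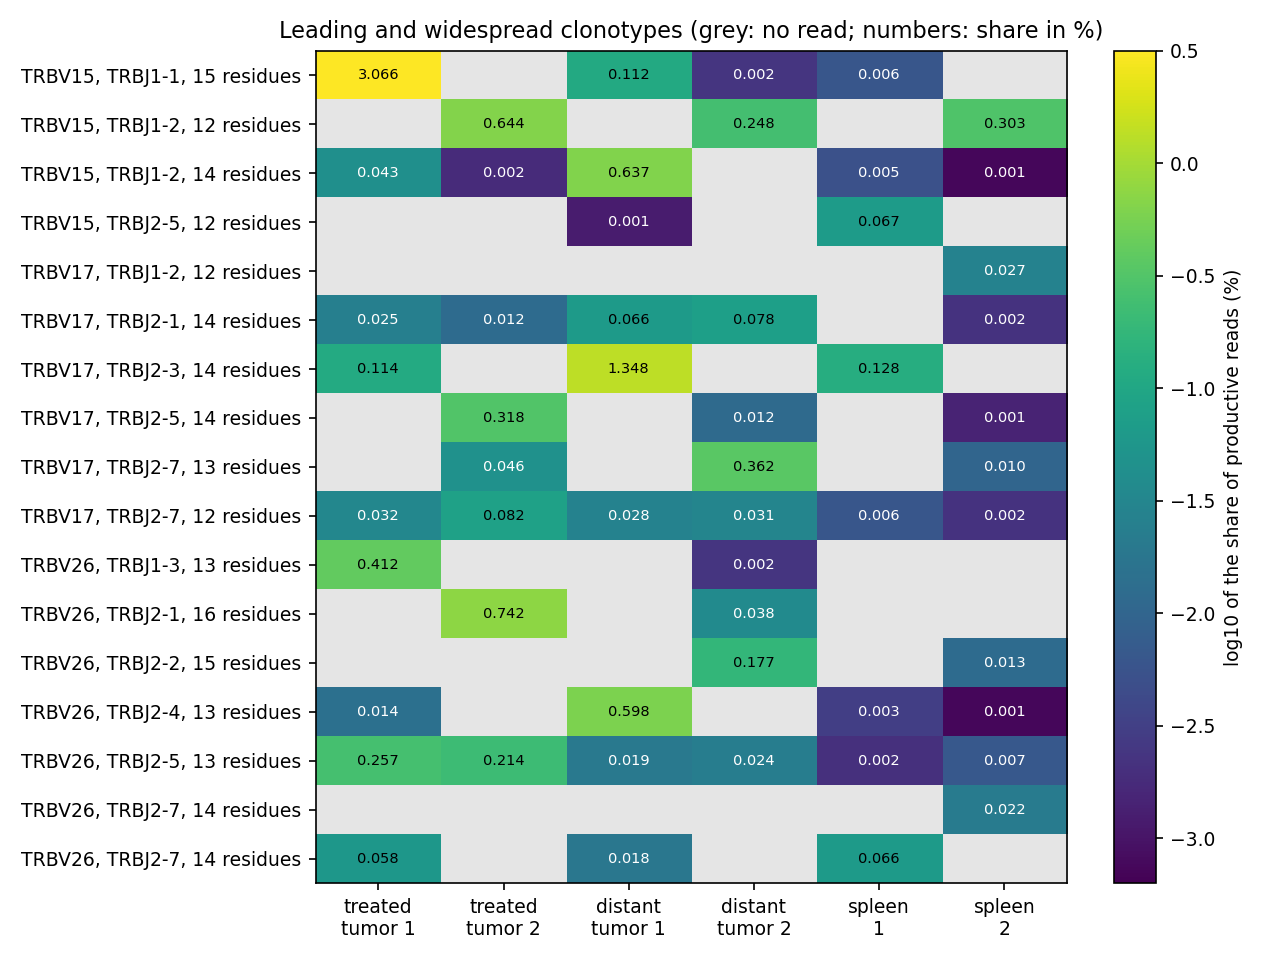
Share of productive reads (percent, printed in the cells and colored on a log10 scale) of the most abundant clonotype of each gene in each library and of the most widespread ones, in rows named by TRBV gene, TRBJ gene and CDR3 length; columns are the 6 libraries, and grey marks no read. Most rows are filled in libraries of a single number, while TRBV26 with TRBJ2-5 and TRBV17 with TRBJ2-7 (12 residues) are filled in all 6.

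Most clonotypes of the 3 genes were read in 1 library: 8515 of 9007 for TRBV15, 4891 of 5089 for TRBV17 and 6344 of 6675 for TRBV26. Tumor clonotypes were found more often in the spleen of the same number than in the other spleen in 11 of the 12 cases formed by 3 genes and 4 tumors. The spleens were not brought to one depth for this. Spleen 2 had more clonotypes than spleen 1, with 4971 against 3033 for TRBV15, 2620 against 1769 for TRBV17 and 3635 against 1770 for TRBV26. This widens the gap between same and other number for tumors numbered 2 and narrows it for tumors numbered 1. For TRBV17, 8.16% and 12.1% of the clonotypes of treated tumors 1 and 2 and 9.49% and 13.7% of those of distant tumors 1 and 2 were also in the spleen of the same number. In the spleen of the other number these shares were 5.61% and 3.79% for treated tumors and 3.73% and 5.43% for distant tumors. For TRBV26 the shares with the same number were 5.43% and 7.78% in treated tumors and 8.41% and 20.1% in distant tumors, against 4.38% and 2.59%, and 4.74% and 5.31%, with the other number. The exception was TRBV15 in treated tumor 1, with 2.91% of its clonotypes in spleen 1 and 3.64% in the deeper spleen 2. The other 20 TRBV genes pooled had the higher share with the same number in every tumor. It was 5.16% and 6.00% in treated tumors and 7.30% and 12.7% in distant tumors. With the other number it was 4.18% and 3.03%, and 4.21% and 4.81%.

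Clonotypes of treated and distant tumors overlapped within a number. Of the TRBV15 clonotypes of treated tumor 1, 17 were also in distant tumor 1, and they carried 65.6% of the TRBV15 reads of the treated and 33.1% of those of the distant tumor. Of the TRBV15 clonotypes of treated tumor 2, 15 were also in distant tumor 2, with 45.2% and 21.8% of the reads. Across numbers fewer TRBV15 clonotypes were shared, but 1 abundant clonotype of a tumor with 1 read in the other gives a high share of reads there. Treated tumor 1 and distant tumor 2 shared 4, with 60.8% and 0.888% of their TRBV15 reads, and treated tumor 2 and distant tumor 1 shared 2, with 8.49% and 24.7%. For TRBV17, 12 and 13 shared clonotypes carried 26.4% and 56.1% of the reads of treated tumors 1 and 2 and 59.7% and 26.9% of those of distant tumors 1 and 2. For TRBV26, 30 and 21 carried 30.4% and 58.2% of the reads of treated tumors 1 and 2, and 35.7% and 16.7% of those of distant tumors 1 and 2. For the other 20 TRBV genes pooled, clonotypes shared within a number carried 38.5% and 42.5% of the reads of treated tumors 1 and 2. They carried 45.9% and 29.5% of those of distant tumors 1 and 2. Between treated tumors 1 and 2, only 1, 4 and 5 clonotypes of TRBV15, TRBV17 and TRBV26 were shared.

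**Figure D4:**
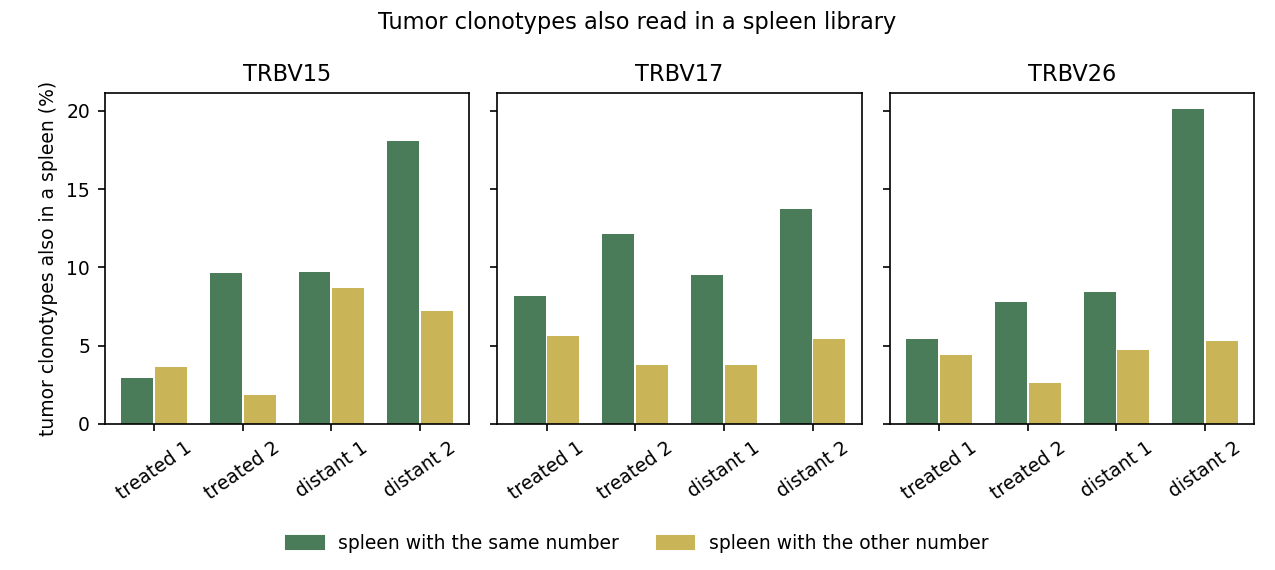
Percent of the clonotypes of each tumor (x axis) that were also read in the spleen with the same replicate number (green) or in the spleen with the other number (yellow), for TRBV15, TRBV17 and TRBV26. The green bar is the higher in 11 of 12 pairs, up to 20.1% for TRBV26 in distant tumor 2, and the exception is TRBV15 in treated tumor 1. The other 20 TRBV genes pooled, not drawn here, were also higher with the same number in every tumor. Spleen 2 had more clonotypes than spleen 1, and the spleens were not brought to one depth.

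The 3 genes joined the same TRBJ genes in different proportions. In the spleens, where clonotypes are many, the genes of the first J cluster (TRBJ1) made up 28.1% and 27.0% of TRBV15 clonotypes, 19.6% and 18.7% of TRBV17 clonotypes and 35.7% and 36.2% of TRBV26 clonotypes in spleens 1 and 2. Set against 17 other TRBV genes with at least 200 clonotypes in each spleen, TRBV17 joined TRBJ2-2 in 8.14% and 8.36% of its clonotypes, above the highest of the others at 6.84% and 6.85%, and TRBV15 did so in 7.09% and 8.13%. TRBV17 was also below the lowest of the others for TRBJ1-5, with 1.24% and 0.992% against 1.44% and 1.35%. TRBV15 joined TRBJ2-7 in 22.3% and 23.0%, above the others' highest of 21.4% and 22.2%. TRBV15 joined TRBJ2-5 in 9.40% and 8.55%, below the others' lowest of 10.1% and 10.3%, and TRBV26 did so in 9.49% and 10.0%.

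**Figure D5:**
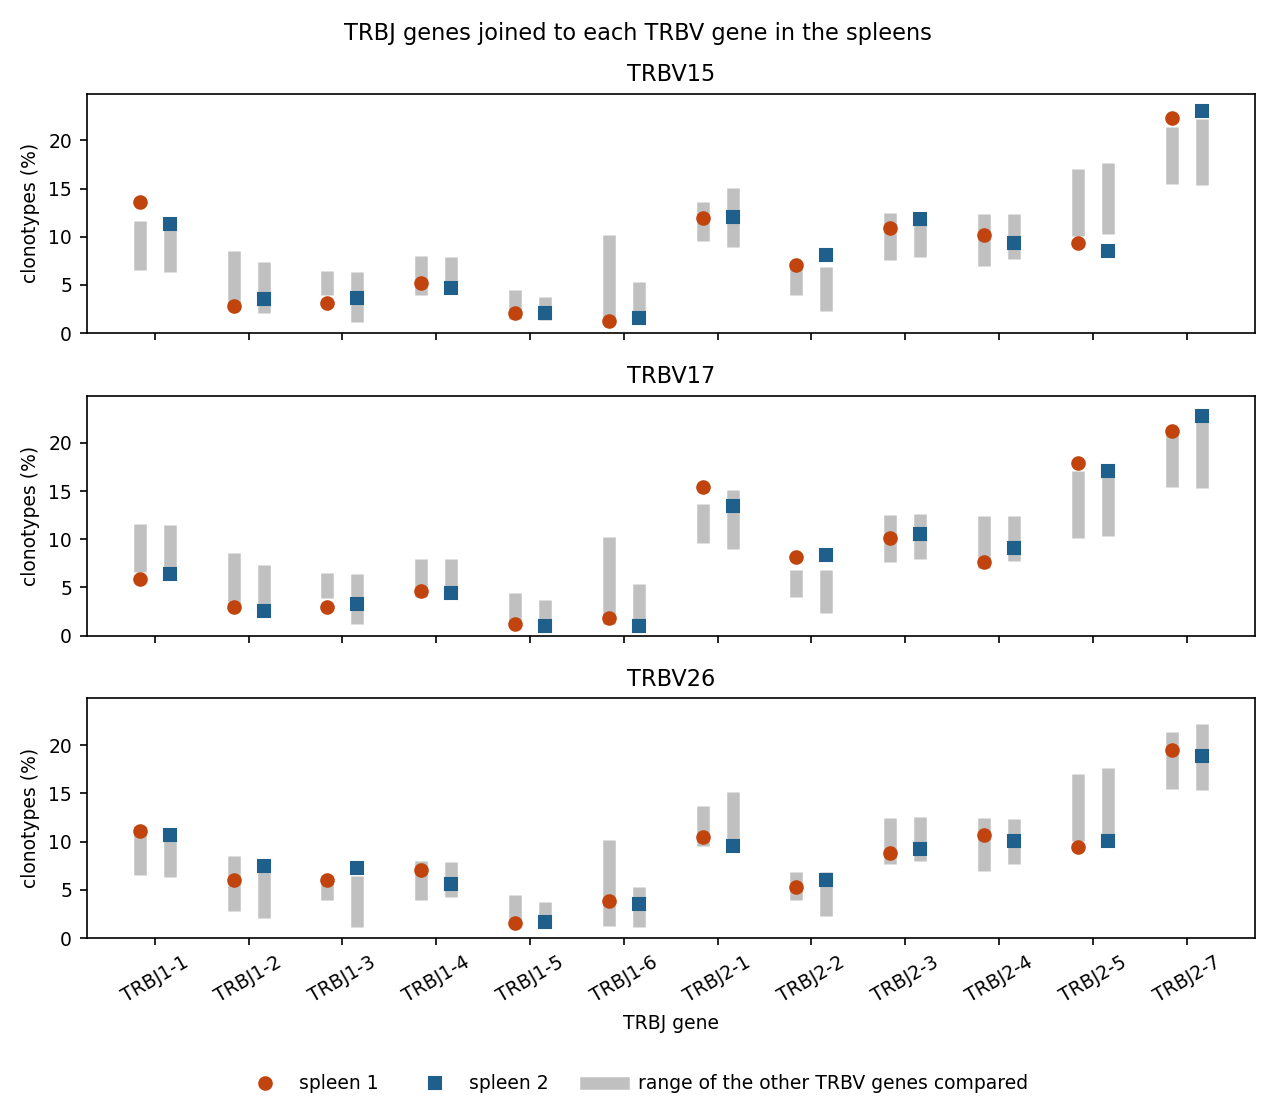
Percent of the clonotypes of TRBV15, TRBV17 and TRBV26 (y axis) that carry each of 12 TRBJ genes (x axis) in spleen 1 (circles) and spleen 2 (squares); grey bars span the 17 other TRBV genes compared in the same spleen. TRBV17 and TRBV15 lie above the grey bars for TRBJ2-2 and TRBV15 lies below them for TRBJ2-5 in both spleens.

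The proportions of TRBJ genes among TRBV15 clonotypes differed between tumors and spleens. TRBJ1 genes made up 54.7% and 47.6% of TRBV15 clonotypes in treated tumors, 47.4% and 30.2% in distant tumors and 28.1% and 27.0% in spleens, so all 4 tumors lay above both spleens. The TRBJ gene that was high differed between tumors. TRBJ1-1 held 47.8% of TRBV15 clonotypes in treated tumor 1, and TRBJ1-2 held 24.2% in distant tumor 1, the TRBJ genes of the leading TRBV15 clonotypes there. In the other 20 TRBV genes pooled these shares were 8.92% and 11.1%. In treated tumor 1, 263 of the 550 TRBV15 clonotypes carried TRBJ1-1 and 258 had 15 residues, as the leading clonotype there has. Near copies of a leading clonotype were counted separately here, and their part in these TRBJ shares was not tested. TRBV17 had the reverse order, with TRBJ1 genes in 12.2% and 16.7% of clonotypes in treated tumors, 16.3% and 16.9% in distant tumors and 19.6% and 18.7% in spleens. For TRBV26 the TRBJ1 shares were 35.9% and 25.2% in treated tumors, 32.1% and 30.7% in distant tumors and 35.7% and 36.2% in spleens.

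Some of the tumor clonotypes differ from a more abundant clonotype of the same gene, TRBJ and length by 1 residue. Merging these into the more abundant one removed 35.5% and 42.8% of TRBV15 clonotypes in treated tumors, 29.7% and 23.3% in distant tumors, and 26.8% and 31.4% in spleens. It removed 21.9% and 38.6% of TRBV17 clonotypes in treated tumors, 37.6% and 24.3% in distant tumors, and 20.97% and 22.8% in spleens. It removed 35.6% and 39.6% of TRBV26 clonotypes in treated tumors, 34.1% and 26.0% in distant tumors, and 23.2% and 30.2% in spleens. Such neighbours may be separate receptors or misread copies, which cannot be told apart without nucleotide sequences. They bear on every value counted by clonotypes.

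The germline V end shown above was kept whole in a large part of spleen clonotypes. CASSL opened 27.4% and 27.5% of TRBV15 clonotypes in spleens 1 and 2, CASSR opened 47.0% and 47.3% of TRBV17 clonotypes and CASSL opened 45.3% and 45.1% of TRBV26 clonotypes. In treated tumors 1 and 2 the whole germline end was kept in 13.5% and 20.8% of TRBV15, 32.1% and 36.4% of TRBV17 and 28.0% and 31.1% of TRBV26 clonotypes. In distant tumors 1 and 2 it was kept in 20.8% and 27.9% of TRBV15, 33.6% and 51.1% of TRBV17 and 25.9% and 34.6% of TRBV26 clonotypes. For TRBV26 all 4 tumors lay below both spleens on this count. For the first 4 residues, CASS, counted by clonotypes, all 4 tumors lay below both spleens for each gene. CASS opened 50.2% to 64.7% of TRBV15 clonotypes in tumors, against 73.8% and 74.3% in spleens. It opened 60.2% to 69.3% against 80.7% and 80.5% for TRBV17, and 48.5% to 63.1% against 80.8% and 80.3% for TRBV26. Counted by reads, tumors and spleens overlapped for each gene. CASS then opened 80.3% and 91.0% of TRBV17 reads in treated tumors, 93.5% and 80.3% in distant tumors, and 83.9% and 83.5% in spleens. It opened 79.9% and 73.8% of TRBV26 reads in treated tumors, 89.6% and 81.7% in distant tumors, and 84.1% in both spleens. For TRBV15 reads it was 60.7% to 89.0% in tumors and 77.9% and 79.1% in spleens.

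CASSR, the germline opening of TRBV17, was found at the start of 3.22% and 3.33% of the clonotypes of the other 20 TRBV genes in spleens. After CASSR, CASSS was the next most frequent of the openings counted in TRBV17, with 13.3% and 12.2% in spleens. In TRBV15, CASR (13.2% and 12.7%), CASSP (9.96% and 10.6%) and CASSF (9.26% and 9.70%) followed CASSL among spleen clonotypes. In TRBV26, CASSP followed with 12.4% and 14.1%.

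The CDR3s of the 3 genes were on average less negatively charged than those of the other 20 V genes pooled. Counting lysine and arginine as +1 and aspartate and glutamate as -1, the mean net charge of spleen clonotypes was -0.53 and -0.57 for TRBV15, -0.18 and -0.15 for TRBV17 and -0.41 and -0.38 for TRBV26 in spleens 1 and 2, against -0.78 and -0.77 for the other 20 TRBV genes. In treated tumors it was -0.11 and -0.33 for TRBV15, -0.15 and 0.17 for TRBV17 and -0.22 and -0.46 for TRBV26, against -0.65 and -0.66 for the other genes. In distant tumors it was -0.66 and -0.50, -0.22 and -0.06, and -0.25 and -0.16 in the same order of genes, against -0.69 and -0.68. Each of the 3 genes lay above this pooled mean in all 6 libraries, TRBV15 in distant tumor 1 by little, and the other V genes were not compared one by one. Mean CDR3 length in spleens was 13.5 residues in both for TRBV15, 14.0 in both for TRBV17 and 13.6 in both for TRBV26.

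Clonotypes found in both spleens were shorter in the part that neither germline end encodes. For TRBV17, 100 clonotypes in both spleens had 2.79 ± 1.15 such residues (SD over clonotypes) and 4189 in a single spleen had 4.46 ± 2.05. For TRBV15, 335 in both had 2.91 ± 1.26 and 7334 in a single spleen had 4.41 ± 1.98. For TRBV26, 164 in both had 2.56 ± 1.13 and 5077 in a single spleen had 4.19 ± 2.12. The whole germline V end was kept in 81.0% of TRBV17 clonotypes in both spleens, against 45.6% of those in 1 spleen. Clonotypes are not replicates and no test was made.

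The V genes whose shares followed the 3 most closely over the 6 libraries were, by Pearson's r of log2 shares, TRBV31 (0.85) and TRBV1 (0.83) for TRBV15, TRBV16 (0.58) and TRBV12-1 (0.52) for TRBV17, and TRBV23 (0.55) and TRBV19 (0.54) for TRBV26. They were chosen as the highest of 20 values each, over 6 libraries whose shares sum to a whole, and are given as a description. For each gene the value furthest from 0 was negative, at -0.91 for TRBV15 with TRBV16, -0.89 for TRBV17 with TRBV2 and -0.58 for TRBV26 with TRBV17. Among the 3 genes, r was -0.34 between TRBV15 and TRBV17, 0.37 between TRBV15 and TRBV26 and -0.58 between TRBV17 and TRBV26.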

How the data were processed

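The TCR-β chain was amplified from total RNA by adaptor-ligation PCR with constant region primers and sequenced on a MiSeq in paired reads of 300 bp, per the labels' protocols. Per the file headers, each deposited file gives the TRBV and TRBJ genes, the CDR3 amino acids, a count of reads and a percent of reads. The counts are whole reads as the authors deposited them. The deposited percent values were rounded, and they match reads divided by productive reads to within 0.00499 percentage points in every library, so productive reads are the total throughout. The tools for alignment, gene assignment and error handling, not given in the sources used here, bear on every clonotype.

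The members, lists and comparisons were chosen with earlier results of these data known. The clonotypes named are the 3 most abundant of each gene in each library, and those in the most libraries, and a part of these is given in the text. The likeness of V genes used log2 of percent plus 0.01 among genes averaging at least 0.1%. Reads per TRBV gene were tested with edgeR 4.0.16 (quasi-likelihood, library totals, low-count filter, which dropped no gene) over all 6 libraries as 3 groups. DESeq2 1.42.0 was an alternative. The edgeR step was tested on simulated data of independent libraries with the same spread for every gene. The libraries here come in sets per mouse and their genes differ in spread, so that test does not bear on their p-values. Single values were compared by exact permutation. Clonotypes at equal depth are the exact expectation for reads drawn without replacement. Intervals for shares are Wilson 95%. Genes and bases come from GENCODE M21, and all 35 gene symbols matched. GENCODE sequence may differ from the authors' germline set.

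Groups and numbers come from the titles. The design text names 2 mice, and libraries of the same number were taken as one mouse. As a check, deviations of log2 shares from group means, over 21 genes, correlated at 0.54 between treated and distant tumors, 0.13 between treated tumors and spleens and 0.07 between distant tumors and spleens.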

Additional observations from a re-analysis of the deposited data

Results flagged for a closer look

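Sequences marked with a stop or frame mark lie outside the productive reads compared above, and TRBV17 was high in them in treated tumors. Marked reads made up 14.2% and 15.99% of TRBV17 reads in treated tumors 1 and 2, 2.86% and 4.17% in distant tumors and 7.15% and 6.66% in spleens. Both treated tumors lay above every other library, and TRBV17 had the highest marked share of 19 TRBV genes in each treated tumor, where the median of the other 16 was 4.75% and 3.39%. The highest of those 16 came close, at 13.0% and 14.9%, and another gene reached 31.2% in distant tumor 1, so a high marked share was not found for TRBV17 alone. In each treated tumor 2 sequences carried most of these reads, 110 of 161 in number 1 and 111 of 150 in number 2, and none of the 4 was read in another library. Without the 2 leading sequences of each library, the marked share was 5.00% and 4.72% in treated tumors, 2.05% and 3.35% in distant tumors and 6.81% and 6.50% in spleens. With marked reads included, the log2 fold change of TRBV17 between treated and distant tumors was -1.02 (edgeR adjusted p = 0.111). For TRBV15 the marked share was 5.02% and 4.15% in treated tumors, 5.27% and 8.75% in distant tumors and 6.53% and 6.99% in spleens. For TRBV26 it was 3.81% and 5.68%, 2.80% and 4.40%, and 5.54% and 4.84% in treated tumors, distant tumors and spleens. The cause was not tested.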

How the results depend on the processing

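The 9 log2 fold changes of the 3 genes were recomputed under 14 alternatives each, 126 values. Of these 112 kept their direction and their side of the threshold, 2 passed it and 12 turned in sign. Those that passed were TRBV17 in DESeq2, with -1.53 between treated and distant tumors and -1.01 between treated tumors and spleens. TRBV15 between treated and distant tumors turned to -0.053 without each library's 10 most abundant clonotypes. TRBV26 between treated and distant tumors turned to -0.015 under TMM and -0.060 in DESeq2. TRBV26 between distant tumors and spleens turned to 0.15 under TMM, 0.38 in DESeq2, 0.19 with clonotypes counted once, 0.51 without the 10 most abundant clonotypes and 0.022 without clonotypes of 1 read.

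Leaving out 1 library at a time, which assumes that the lone library left in a tissue varies like the others, gave ranges that cross 0 for TRBV15 between treated tumors and spleens (-0.68 to 0.089, the highest without treated tumor 2), TRBV26 between treated tumors and spleens (-0.018 to 0.60, the lowest without spleen 1), TRBV26 between distant tumors and spleens (-0.31 to 0.30, positive without distant tumor 2 or spleen 2) and the TRBV26 share of tumors minus spleens (-0.40 to 0.94 percentage points, the lowest without spleen 1). Without crossing 0, leaving out 1 library moved by over 1.5 times TRBV15 (0.33 to 1.10, without treated tumor 1 and without treated tumor 2) and TRBV26 (0.075 to 0.55, without distant tumor 2 and without distant tumor 1) between treated and distant tumors, and TRBV17 between distant tumors and spleens (0.016 to 0.25, without distant tumor 2 and without distant tumor 1). The share of tumors minus spleens moved as far for TRBV17, from -0.93 to -0.25 percentage points against -0.57 with all libraries. For TRBV15 it ran from -2.45 to -1.17 percentage points against -1.75. The number of TRBV genes called then ran from 0 to 1 between treated and distant tumors (1 without treated tumor 1 or distant tumor 2) and from 0 to 3 between distant tumors and spleens (3 without distant tumor 2). It was 2 in DESeq2, 1 with clonotypes counted once and 1 without the 10 most abundant clonotypes between treated and distant tumors. It was 3 in DESeq2 and 1 with marked reads included between treated tumors and spleens, and 1 with clonotypes counted once between distant tumors and spleens. The paired fit, with replicate number as a replicate block, gave TRBV17 -1.21 (adjusted p = 0.120, edgeR) between treated and distant tumors and changed no call of the 3 genes. The tumor and spleen differences in clonotypes at equal depth and in the share of the most abundant clonotype kept their direction under both alternatives tried for each. The causes were not tested.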
